A study of Mus musculus with 18 samples.

Results

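Glycolysis breaks glucose down to pyruvate in the cytosol and yields ATP, and lactate dehydrogenase then interconverts pyruvate and lactate. Several steps are catalyzed by isozymes from separate genes, which differ in their regulation and in the tissues that use them. In the mammary gland, luminal cells form the layer that lines the ducts and secretes milk in lactation, when glucose is also drawn into lactose. The 10 genes examined here were chosen by name for the steps they catalyze: Hk1 and Hk2 (hexokinases), Pfkl and Pfkp (phosphofructokinases), Aldoa and Aldoc (aldolases), Tpi1, Pgk1, and Ldha and Ldhb (lactate dehydrogenases). Of these, 9 had a probe under their symbol, and all 9 passed the filter on background, out of 16324 genes that passed it and 19057 genes with a probe. No probe was named for Hk2, so it was not analysed here.

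The study profiled 4 cell subpopulations sorted by flow cytometry from mammary glands of female FVB/N mice: a stromal fraction (CD29lo CD24-, 3 arrays), an MaSC-enriched fraction (the basal fraction that holds mammary stem cells, CD29hi CD24+ CD61+, 5 arrays), luminal progenitor cells (CD29lo CD24+ CD61+, 5 arrays) and mature luminal cells (CD29lo CD24+ CD61-, 5 arrays). The labels give no treatment, the age of the arrayed mice was not given in the sources used here, and every sample pooled cells of several mice, so that the replicate is the pool and the spread between single mice is not seen. Cells bearing the endothelial, leukocyte or red cell antigens CD31, CD45 and TER119 were labelled for removal. Arrays are numbered by mouse pool, and pools 1, 2 and 3 were hybridized in batch 1 and pools 4 and 5 in batch 2, which holds no stromal array.

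Levels are log2 intensities of Illumina bead arrays, on which a unit step is a doubling, and an array's background lay between 5.10 and 5.44. A gene was called higher or lower where the adjusted p was under 0.05 and the fold change over 1.5. By the means of marker lists, the sorted fractions carried the markers of their labels. The fibroblast list averaged 13.62 to 13.88 on stromal arrays against 6.83 to 11.30 on epithelial arrays. The basal list averaged 11.62 to 12.74 on MaSC-enriched arrays against 7.43 to 9.81 on all others. The luminal progenitor list averaged 11.12 to 11.92 on luminal progenitor and 9.98 to 11.14 on mature luminal arrays, which overlapped. It was 8.72 to 9.80 on stromal and 8.44 to 10.72 on MaSC-enriched arrays. The mature luminal list averaged 8.85 to 9.66 on luminal progenitor and 9.70 to 11.14 on mature luminal arrays. On stromal and MaSC-enriched arrays it was 7.30 to 7.61 and 6.85 to 8.15. Within the luminal progenitor list, Itgb3 was highest on stromal arrays (6.31 to 6.90, against 4.86 to 6.12 on luminal progenitor arrays). Aldh1a3 was higher on stromal (11.31 to 11.55) than on luminal progenitor arrays (9.68 to 10.86). Lbp overlapped between stromal (11.35 to 11.84) and luminal progenitor arrays (10.80 to 12.21). Within the mature luminal list, Esr1 on stromal arrays (10.69 to 10.93) lay inside the range of mature luminal arrays (9.67 to 11.43). MaSC-enriched arrays 3 and 4 and luminal progenitor arrays 3 and 4 stood apart by their endothelial markers (9.89 to 11.65, against 6.71 to 9.26 on the other 14 arrays), and mature luminal arrays 3 and 4 by skeletal muscle markers (8.89 and 9.41, against 5.13 to 6.76 on the other 16). Luminal progenitor array 4 also had the fewest probes above background (46.3%, others 51.2% to 55.9%) and the lowest weight in the fit. In bulk samples of this kind, fewer cells of a type and less RNA per cell cannot be told apart.

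The genes lie on 6 chromosomes of the mouse build GRCm38.p6. Hk1 spans chr10:62268855-62379920, Pfkl chr10:77986947-78009807, Pfkp chr13:6579874-6649060, Aldoa chr7:126795234-126800994 and Aldoc chr11:78323073-78327781. Tpi1 spans chr6:124810586-124814158, Pgk1 chrX:106187100-106203699, Ldha chr7:46842274-46855627, Ldhb chr6:142490249-142507957 and Hk2 chr6:82725025-82774454. The promoters of Pfkl and Aldoc are shown because these genes had the largest differences between the stromal fraction and the epithelium, and that of Pgk1 because the gene is a textbook target of the hypoxia-inducible factor. Each is the 250 bases before a RefSeq start, 5′ to 3′ on the gene's own strand, with capitals on ACGTG and GCGTG in either orientation, the letters of the core that this factor recognizes. The Pfkl window is chr10:78009808-78010057 (minus strand), the Aldoc window chr11:78322823-78323072 (plus strand) and the Pgk1 window chrX:106186850-106187099 (plus strand).
Pfkl: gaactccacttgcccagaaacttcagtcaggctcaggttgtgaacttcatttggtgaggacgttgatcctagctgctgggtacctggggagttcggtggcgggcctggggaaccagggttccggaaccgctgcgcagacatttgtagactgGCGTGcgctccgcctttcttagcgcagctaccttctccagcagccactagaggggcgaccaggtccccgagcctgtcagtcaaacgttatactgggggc
Aldoc: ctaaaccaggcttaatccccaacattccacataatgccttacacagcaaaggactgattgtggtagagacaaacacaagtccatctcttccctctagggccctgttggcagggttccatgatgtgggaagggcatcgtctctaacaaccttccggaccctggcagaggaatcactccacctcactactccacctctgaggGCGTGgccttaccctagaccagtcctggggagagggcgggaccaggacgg
Pgk1: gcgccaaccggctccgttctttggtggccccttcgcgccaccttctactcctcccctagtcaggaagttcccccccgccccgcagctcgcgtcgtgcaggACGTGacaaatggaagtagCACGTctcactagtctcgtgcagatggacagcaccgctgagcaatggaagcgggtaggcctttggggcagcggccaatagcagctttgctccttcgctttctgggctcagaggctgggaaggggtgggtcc

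Pfkl and Aldoc each held 1 such match and Pgk1 held 2. Over all 10 genes, with the most upstream listed start of each, 7 had at least 1 match, as did 38.6% of 27018 mouse promoters of the same length. The listed starts of Pfkp and Ldha, both among the 7, lie inside the span of a longer transcript. So do those of Hk1 and Aldoa, which had no match. Of 3 sites in Ldha, 2 were the E-box letters CACGTG, which contain ACGTG on both strands and were present in 6.04% of all promoters. The GC content was 59.2% for Pfkl, 55.2% for Aldoc and 62.8% for Pgk1, against a median of 52.0% over all promoters. A match is a description of the letters only.

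To ask how the stromal fraction differed from the epithelium, its arrays were compared with each epithelial subpopulation in turn. Glycolysis enzymes were mostly lower in the stromal fraction, each read from its brightest probe. Pfkl, Aldoc, Pgk1 and Ldha were lower against all 3 epithelial subpopulations. Hk1 and Tpi1 were lower against both luminal ones, and Aldoa against the MaSC-enriched and mature luminal ones. Pfkp was the exception, higher in stromal than in both luminal subpopulations. Against MaSC-enriched cells, 0 of 9 genes were called higher and 5 lower, where 30.4% of all 16324 genes were called (14.3% higher and 16.1% lower). Against luminal progenitor cells 1 was higher and 6 lower, where 36.3% of all genes were called (16.5% higher and 19.8% lower), and against mature luminal cells 1 was higher and 7 lower, where 38.3% were called (16.5% higher and 21.7% lower). The median log2 fold change of the 9 genes was -0.71, -0.77 and -0.74 against MaSC-enriched, luminal progenitor and mature luminal cells, beside medians over all genes tested of -0.03, -0.04 and -0.06. The 3 comparisons share the stromal arrays.

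**Figure D1:**
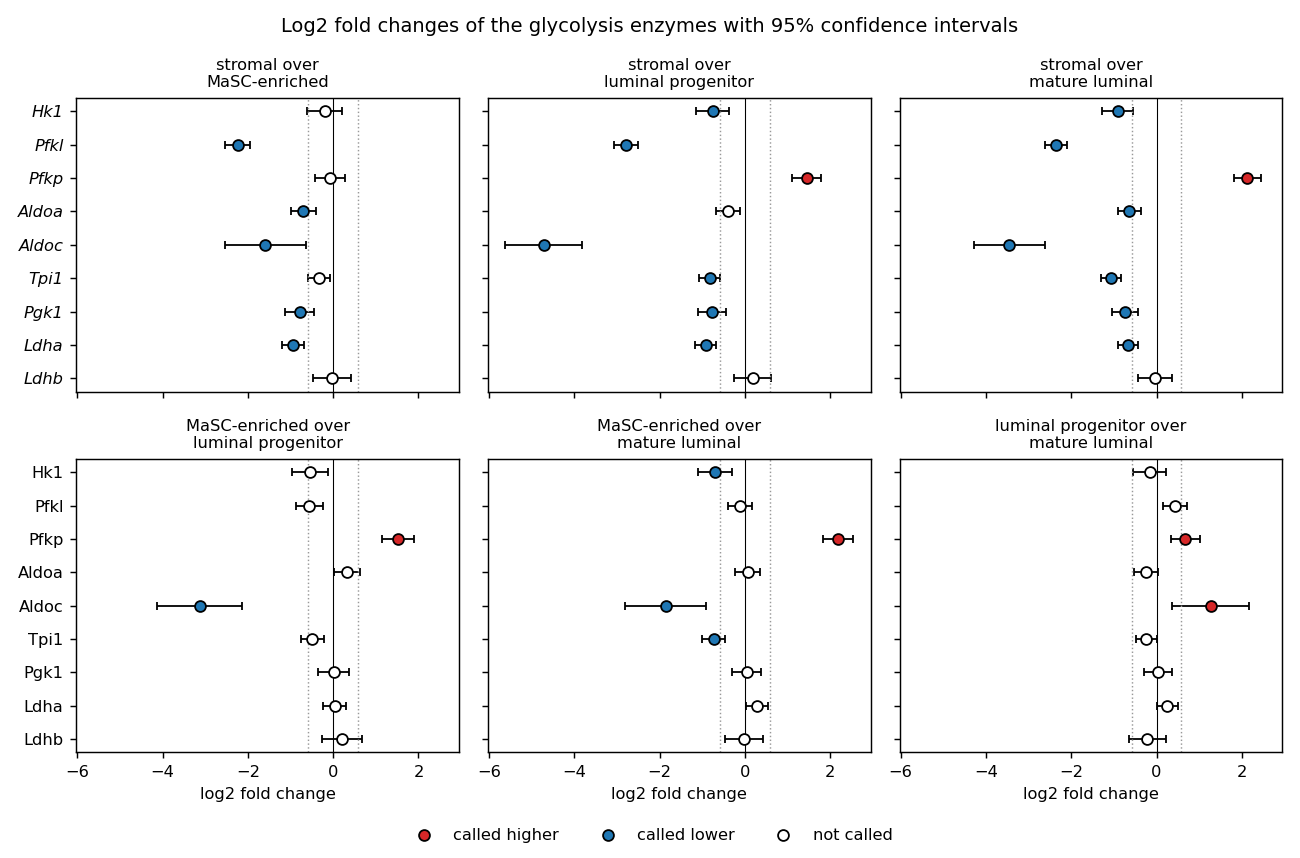
Log2 fold changes (x axis) of the 9 measured glycolysis enzymes (rows) in the 6 comparisons (panels), with bars for the 95% confidence interval of the fit; filled points were called and dotted lines mark a fold change of 1.5. Pfkl and Aldoc lie far to the left in the upper panels (Pfkl from -2.79 to -2.23), and Pfkp to the right wherever a luminal subpopulation is the second group.

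Pfkl encodes the liver-type phosphofructokinase, which catalyzes the committed step of the pathway. Its log2 levels were 9.15, 9.33 and 8.87 on the stromal arrays. They were 11.49, 11.25, 11.32, 11.75 and 11.63 on the MaSC-enriched arrays, 11.89, 12.09, 11.89, 12.50 and 12.10 on the luminal progenitor arrays, and 11.35, 11.35, 11.64, 12.22 and 11.76 on the mature luminal arrays. Every stromal array thus lay far below every epithelial array. The fitted log2 fold change was -2.23 against MaSC-enriched (SE 0.14, adjusted p = 3.25e-10), -2.79 against luminal progenitor (SE 0.13, adjusted p = 8.38e-12) and -2.35 against mature luminal cells (SE 0.12, adjusted p = 3.28e-11). In batch 1 alone, which holds all stromal arrays, the mean differences were -2.24, -2.84 and -2.33. A second probe for Pfkl, at 5.44 to 7.27 and so near background, was not called in any comparison (log2 fold changes of 0.04, -0.26 and -0.33, adjusted p = 0.933, 0.420 and 0.240), so the difference rests on 1 probe.

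Within the epithelium Pfkl varied less. Luminal progenitor arrays were all above MaSC-enriched arrays, by a log2 fold change of -0.56 for MaSC-enriched over luminal progenitor cells (adjusted p = 0.00616), a size under the fold threshold. Luminal progenitor cells were above mature luminal cells in 5 of 5 pools, by 0.44 (adjusted p = 0.0157), again under the fold threshold, with overlapping arrays.

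Pfkp, the platelet-type phosphofructokinase, had the opposite distribution. Its levels were 10.49, 10.60 and 10.45 on stromal arrays and 10.92, 10.60, 10.44, 9.57 and 10.93 on MaSC-enriched arrays. They were 8.94, 9.11, 9.33, 8.03 and 9.16 on luminal progenitor arrays and 8.61, 8.30, 8.20, 7.91 and 8.86 on mature luminal arrays. Stromal and MaSC-enriched arrays overlapped and lay above all 10 luminal arrays. The log2 fold change between stromal and MaSC-enriched cells was -0.07 (95% interval -0.42 to 0.29, adjusted p = 0.839).

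The Pfkp difference from luminal cells was large for both other fractions. Stromal cells exceeded luminal progenitor cells by 1.45 (SE 0.16, adjusted p = 7.52e-07) and mature luminal cells by 2.13 (SE 0.15, adjusted p = 1.70e-09). MaSC-enriched cells exceeded them by 1.52 (SE 0.18, adjusted p = 1.49e-06) and 2.19 (SE 0.17, adjusted p = 5.32e-09), in 5 of 5 pools each. A second Pfkp probe gave the same calls, with log2 fold changes of 1.45, 1.87, 1.10 and 1.53. One more probe was below background on every array. In batch 2 alone the MaSC-enriched differences were 1.66 and 1.87. MaSC-enriched array 4 and luminal progenitor array 4, the lowest in Pfkp of their subpopulations, both had high endothelial markers (11.14 and 10.66). MaSC-enriched array 3 and luminal progenitor array 3, also with high endothelial markers (11.65 and 9.89), were at 10.44 and 9.33 in Pfkp, the latter the highest luminal progenitor value. Mature luminal array 4, the lowest of its subpopulation (7.91), had an endothelial level of 8.52, against 7.75 to 8.05 on the other mature luminal arrays. The part of endothelial cells was not tested. Without the 4 arrays of high endothelial markers, the differences from luminal progenitor and mature luminal cells were 1.57 and 2.14 for stromal and 1.80 and 2.38 for MaSC-enriched cells, all still called.

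**Figure D2:**
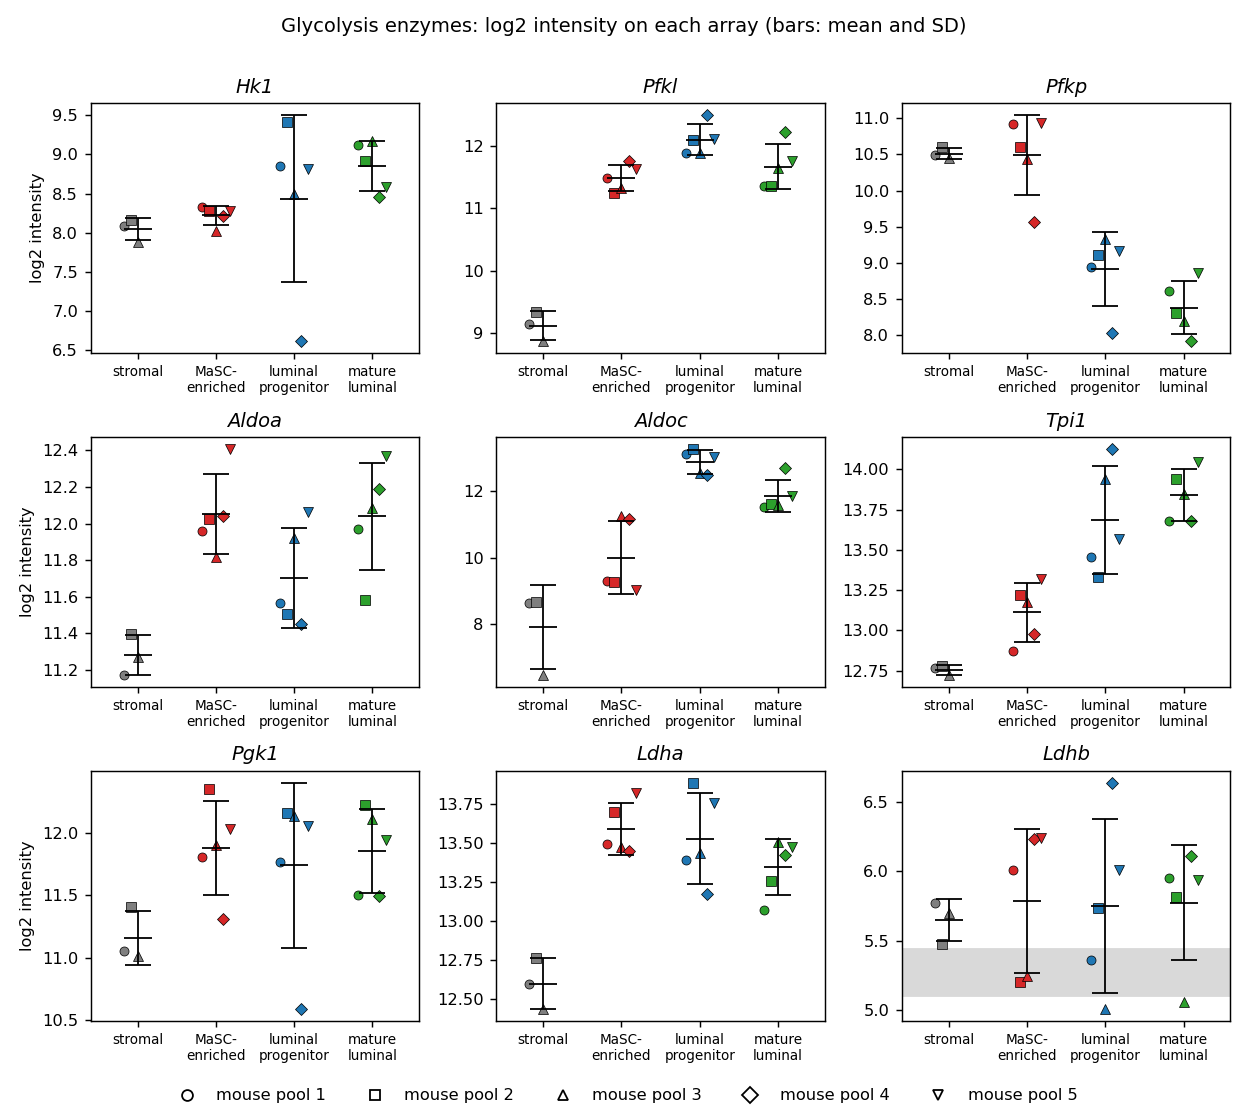
Log2 intensity (y axis, own scale per panel) of each measured glycolysis enzyme on the 18 arrays, grouped by subpopulation; symbols give the mouse pool, bars the mean and SD, and the gray band in the Ldhb panel the range of background. Stromal arrays are lowest for Pfkl (8.87 to 9.33) and Ldha (12.44 to 12.76), while Pfkp is high in stromal and MaSC-enriched and low in luminal arrays.

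Pfkp and Pfkl were also set against each other on every array, as the Pfkp level minus the Pfkl level. Probes differ in brightness, so the zero of this scale has no meaning and only its change between arrays is read. The difference was 1.40 ± 0.17 in stromal (SD, n = 3), -0.99 ± 0.67 in MaSC-enriched, -3.18 ± 0.74 in luminal progenitor and -3.29 ± 0.62 in the mature luminal subset (SD, n = 5 each). Stromal arrays (1.26 to 1.59) did not overlap with MaSC-enriched arrays (-2.18 to -0.57), and neither overlapped with the luminal arrays. Luminal progenitor (-4.47 to -2.56) and mature luminal arrays (-4.30 to -2.74) overlapped. The arrays of pool 4 were the lowest of their subpopulation in all 3 epithelial fractions (-2.18, -4.47 and -4.30).

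**Figure D3:**
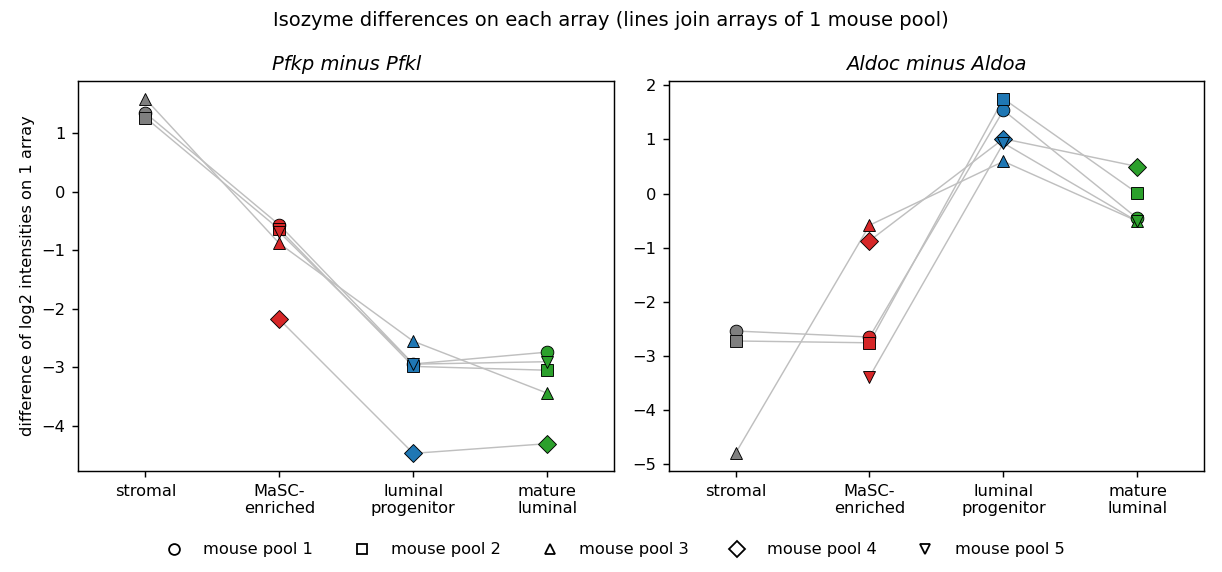
Difference of log2 intensities on each array (y axis), Pfkp minus Pfkl (left) and Aldoc minus Aldoa (right), by subpopulation, with gray lines joining arrays of the same mouse pool. The left panel steps down from stromal (mean 1.40) to MaSC-enriched (mean -0.99) and luminal arrays, and the right panel is highest in luminal progenitor arrays (mean 1.17).

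Aldoc encodes aldolase C, best known from the brain, and varied most of the 9 genes. Its levels were 8.64, 8.67 and 6.48 on stromal arrays and 9.31, 9.27, 11.23, 11.17 and 9.02 on MaSC-enriched arrays. They were 13.10, 13.26, 12.52, 12.47 and 13.00 on luminal progenitor arrays and 11.51, 11.59, 11.57, 12.69 and 11.85 on mature luminal arrays. The stromal, MaSC-enriched and luminal arrays did not overlap, and luminal progenitor and mature luminal arrays overlapped only through mature luminal array 4.

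Aldoc was lower in stromal cells than in MaSC-enriched cells by 1.59 on the log2 scale (a log2 fold change of -1.59, SE 0.45, adjusted p = 0.0107). Against luminal progenitor cells it was -4.71 (SE 0.43, adjusted p = 6.00e-08), a 26.2-fold difference, and against mature luminal cells -3.45 (SE 0.40, adjusted p = 1.45e-06). These sizes depended on stromal arrays: without stromal array 3 they were -1.13, -4.25 and -2.99, without stromal array 1 -2.27, -5.40 and -4.13, and without stromal array 2 -2.28, -5.39 and -4.14, all still called. Stromal array 3 also had the lowest luminal marker level of all arrays (7.93, against 9.38 and 9.17 on stromal arrays 1 and 2), and the part of luminal cells in the result was not tested.

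Among epithelial cells, Aldoc was lower in MaSC-enriched than in luminal progenitor cells by a log2 fold change of -3.13 (SE 0.47, adjusted p = 3.54e-05) and than in mature luminal cells by -1.86 (SE 0.45, adjusted p = 0.00328), in 5 of 5 pools each. MaSC-enriched arrays 3 and 4, with the high Aldoc levels, had luminal marker levels of 11.37 and 10.93, against 9.90 to 10.09 on the other 3, luminal progenitor marker levels of 10.72 and 10.42, against 8.44 to 8.86, and the high endothelial levels given above. Their part in the Aldoc level was not tested. Without those 2 arrays and luminal progenitor arrays 3 and 4, the stromal difference from MaSC-enriched cells was -0.89 (adjusted p = 0.113) and no longer called, and in batch 1 alone it was -1.41 (adjusted p = 0.0698), also not called. Without MaSC-enriched array 3 alone it was -1.09 (adjusted p = 0.0459).

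Luminal progenitor cells exceeded mature luminal cells in Aldoc by 1.27 (SE 0.43, adjusted p = 0.0320), in 4 of 5 pools. This call was lost when any one of luminal progenitor arrays 1, 2 or 5 or mature luminal arrays 1, 2 or 3 was left out (log2 fold changes of 1.13 to 1.26, adjusted p = 0.0610 to 0.114). A second Aldoc probe, above background only on 4 of 5 luminal progenitor arrays, was called higher in luminal progenitor than in stromal, MaSC-enriched and mature luminal cells (adjusted p = 2.15e-05, 0.000220 and 0.000262). Set against the background level of these groups, it was at least 1.27-fold, 1.25-fold and 1.26-fold higher.

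**Figure D4:**
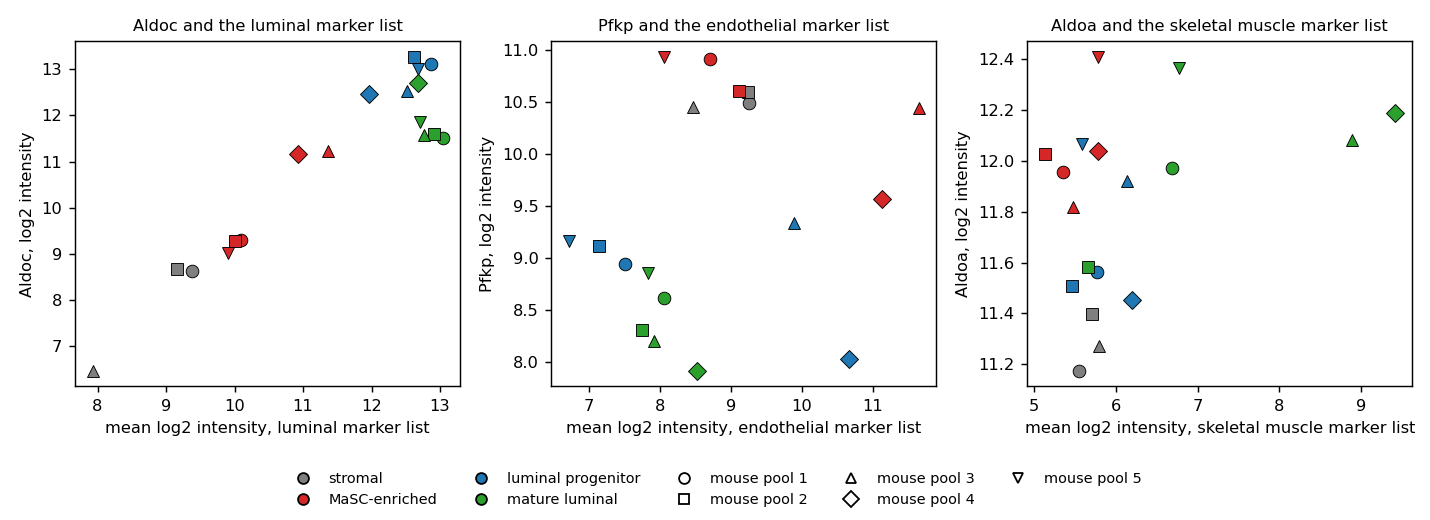
Level of a glycolysis enzyme (y axis, log2 intensity) against the mean level of a marker list (x axis, log2 intensity) on the 18 arrays, colored by subpopulation with 1 symbol per mouse pool. MaSC-enriched arrays 3 and 4 lie between the other MaSC-enriched arrays and the luminal arrays in both Aldoc (11.23 and 11.17) and luminal markers (11.37 and 10.93), and 2 mature luminal arrays stand apart by skeletal muscle markers (8.89 and 9.41).

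Aldoa, the aldolase of muscle and most other tissues, ranged far less. It was 11.28 ± 0.11 in stromal (SD, n = 3), 12.05 ± 0.22 in MaSC-enriched, 11.70 ± 0.27 in luminal progenitor and 12.04 ± 0.29 in the mature luminal subset (SD, n = 5 each). All stromal arrays (11.17 to 11.40) were below all epithelial arrays, and the log2 fold change was -0.71 against MaSC-enriched (adjusted p = 0.000593) and -0.64 against mature luminal cells (adjusted p = 0.000515). In batch 1 alone the last value was -0.55, under the fold threshold. Against luminal progenitor cells it was -0.39 (adjusted p = 0.0353), under the fold threshold. Within the epithelium Aldoa was not called, with intervals of 0.01 to 0.63 for MaSC-enriched over luminal progenitor, -0.22 to 0.36 for MaSC-enriched over mature luminal and -0.53 to 0.03 for luminal progenitor over mature luminal cells. Mature luminal arrays 3 and 4, with the muscle markers, had Aldoa levels of 12.08 and 12.19, inside the range of the other 3 (11.58 to 12.37).

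The Aldoc level minus the Aldoa level was -3.35 ± 1.26 in stromal (SD, n = 3), -2.05 ± 1.24 in MaSC-enriched, 1.17 ± 0.47 in luminal progenitor and -0.20 ± 0.45 in the mature luminal subset (SD, n = 5 each). Luminal progenitor arrays (0.60 to 1.75) lay above all mature luminal arrays (-0.51 to 0.50). MaSC-enriched arrays (-3.39 to -0.58) overlapped with stromal arrays and lay below all luminal arrays.

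The enzymes of the shared middle of the pathway differed less. Tpi1, triosephosphate isomerase, interconverts the triose phosphates that aldolase releases. Its levels were 12.76, 12.78 and 12.72 on stromal arrays, 12.87, 13.22, 13.18, 12.98 and 13.32 on MaSC-enriched arrays, 13.46, 13.33, 13.94, 14.13 and 13.57 on luminal progenitor arrays, and 13.68, 13.94, 13.85, 13.68 and 14.05 on mature luminal arrays. Stromal, MaSC-enriched and luminal arrays did not overlap, and the luminal subpopulations overlapped with each other.

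Stromal cells were lower in Tpi1 than luminal progenitor cells by a log2 fold change of -0.82 (SE 0.12, adjusted p = 1.85e-05) and than mature luminal cells by -1.07 (SE 0.11, adjusted p = 3.09e-07). Against MaSC-enriched cells the value was -0.33 (adjusted p = 0.0506). MaSC-enriched cells were lower than mature luminal cells by -0.73 (SE 0.12, adjusted p = 0.000107), in 5 of 5 pools, while -0.49 against luminal progenitor cells (adjusted p = 0.00650) was under the fold threshold. Of 2 other Tpi1 probes, both were lower in stromal than in luminal cells. The dimmer one, at 5.94 to 8.58, was called lower in stromal than in MaSC-enriched cells (-1.35, adjusted p = 0.000220) and gave 0.09 (adjusted p = 0.851) for MaSC-enriched over mature luminal cells.

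Pgk1, phosphoglycerate kinase, catalyzes the first step of glycolysis that makes ATP. It was at 11.05, 11.40 and 11.01 on stromal arrays, 11.81, 12.35, 11.91, 11.31 and 12.03 on MaSC-enriched arrays, 11.77, 12.16, 12.13, 10.59 and 12.05 on luminal progenitor arrays, and 11.50, 12.22, 12.11, 11.50 and 11.94 on mature luminal arrays. Stromal cells were lower by log2 fold changes of -0.78 (adjusted p = 0.000863), -0.77 (adjusted p = 0.000612) and -0.74 (adjusted p = 0.000502) against MaSC-enriched, luminal progenitor and mature luminal cells. With equal weight for all arrays the luminal progenitor value was -0.68 (adjusted p = 0.0523) and not called. Array 4 of both the MaSC-enriched and luminal progenitor fractions lay below the highest stromal array. Among epithelial cells the fold changes were 0.01, 0.05 and 0.04, with 95% intervals reaching no further than -0.35 and 0.38. A second Pgk1 probe, near background at 5.10 to 7.10, was called lower in stromal than in MaSC-enriched (-0.67, adjusted p = 0.0274) and mature luminal cells (-0.96, adjusted p = 0.000782). It was not called against luminal progenitor cells (-0.53, adjusted p = 0.0714).

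Ldha, the lactate dehydrogenase subunit that favors the conversion of pyruvate to lactate, showed the same division. Its levels were 12.60, 12.76 and 12.44 on stromal arrays, 13.49, 13.70, 13.47, 13.45 and 13.82 on MaSC-enriched arrays, 13.39, 13.89, 13.44, 13.17 and 13.76 on luminal progenitor arrays, and 13.07, 13.26, 13.50, 13.43 and 13.47 on mature luminal arrays. All stromal arrays were below all epithelial arrays, by -0.94 (SE 0.12, adjusted p = 5.86e-06), -0.91 (SE 0.12, adjusted p = 4.97e-06) and -0.67 (SE 0.11, adjusted p = 8.32e-05) against the same 3 subpopulations. Without mature luminal array 3 the last value was -0.58, just under the fold threshold. No epithelial comparison of Ldha was called, with log2 fold changes of 0.03, 0.28 and 0.25.

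Ldhb, the subunit that favors the reverse reaction, was measured by 1 probe near background, at 5.01 to 6.64 over all arrays. No comparison was called, and the 95% intervals spanned -0.64 to 0.67 over the 6 comparisons, so that some of them hold a difference of 1.5-fold.

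Hk1 encodes a hexokinase, which traps glucose in the cell as glucose 6-phosphate. Its levels were 8.09, 8.16 and 7.88 on stromal arrays, 8.33, 8.28, 8.02, 8.22 and 8.27 on MaSC-enriched arrays, 8.86, 9.41, 8.49, 6.61 and 8.81 on luminal progenitor arrays, and 9.12, 8.91, 9.17, 8.46 and 8.58 on mature luminal arrays. Mature luminal arrays were above all stromal and MaSC-enriched arrays, and so were all luminal progenitor arrays but array 4, the one with few probes above background. The log2 fold change was -0.75 for stromal over luminal progenitor (adjusted p = 0.00376), -0.91 for stromal over mature luminal (adjusted p = 0.000366) and -0.71 for MaSC-enriched over mature luminal cells (adjusted p = 0.00808). None of the 3 was called when all arrays had equal weight (adjusted p = 0.380, 0.0756 and 0.171). A second Hk1 probe, above background on all 18 arrays, was not called for stromal over luminal progenitor cells (-0.48, adjusted p = 0.0994). It was called lower than in mature luminal cells for stromal (-0.67, adjusted p = 0.0125) and MaSC-enriched cells (-0.64, adjusted p = 0.0318). Stromal and MaSC-enriched cells differed by -0.20 (95% interval -0.61 to 0.20, adjusted p = 0.511).

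Within the epithelium, the calls went to 4 of the genes already described. For MaSC-enriched over luminal progenitor cells, 1 of 9 genes was higher (Pfkp) and 1 lower (Aldoc), where 22.2% of all genes were called (11.3% higher and 10.9% lower). For MaSC-enriched over mature luminal cells, 1 was higher (Pfkp) and 3 lower (Hk1, Aldoc and Tpi1), where 27.5% were called (13.7% higher and 13.8% lower). For luminal progenitor over mature luminal cells, 2 were higher (Pfkp and Aldoc) and 0 lower, where 11.1% were called (6.41% higher and 4.66% lower). The Pfkp value for luminal progenitor over mature luminal cells was 0.68 (SE 0.16, adjusted p = 0.00290), in 5 of 5 pools, and fell under the fold threshold without luminal progenitor array 3 (0.55) or with the pool as a fixed block (0.57). The second Pfkp probe gave 0.43 (adjusted p = 0.192).

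The rest of the pathway was read from lists of related genes, each described by its counts. These counts are to be read beside the shares of all genes called in each comparison, given above. Of 20 further glycolysis genes 14 were tested. For stromal over MaSC-enriched cells 3 were higher and 3 lower, for stromal over luminal progenitor 3 higher and 2 lower, and for stromal over mature luminal 2 higher and 5 lower, while each epithelial comparison had 0 higher and 1 lower. Gapdh, glyceraldehyde-3-phosphate dehydrogenase, was lower in stromal than in MaSC-enriched, luminal progenitor and mature luminal cells (-1.45, -1.21 and -1.38), and so was Pkm, the pyruvate kinase of most tissues (-1.26, -1.20 and -1.69). Pkm averaged 11.57 ± 0.03 in stromal (SD, n = 3), 12.87 ± 0.27 in MaSC-enriched, 12.75 ± 0.32 in luminal progenitor and 13.26 ± 0.18 in the mature luminal subset (SD, n = 5 each).

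Eno2, the enolase best known from neurons, ran the other way. It was 10.17 ± 0.32 in stromal (SD, n = 3), 7.84 ± 0.80 in MaSC-enriched, 7.71 ± 1.11 in luminal progenitor and 8.08 ± 0.74 in the mature luminal subset (SD, n = 5 each), with stromal log2 fold changes of 2.54, 2.90 and 2.26 (adjusted p = 4.01e-06, 4.09e-07 and 4.04e-06). Galm, which interconverts the forms of free glucose, was also higher in stromal cells (2.31, 0.92 and 0.97) and lower in MaSC-enriched than in luminal progenitor (-1.39) and mature luminal cells (-1.34). Pgam1, phosphoglycerate mutase, was lower in stromal than in MaSC-enriched (-0.67) and mature luminal cells (-0.73) and lower in luminal progenitor than in mature luminal cells (-0.60). Pgam2, the muscle-type mutase, was at or below background on all stromal arrays and was called higher in mature luminal cells (adjusted p = 0.0351). There it was at 7.27 and 7.88 on arrays 3 and 4, the ones with muscle markers. On the other 3 it was near background, at 5.04 to 5.23, so no fold is given for mature luminal cells as a whole. The part of muscle RNA in that call was not tested.

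**Figure D5:**
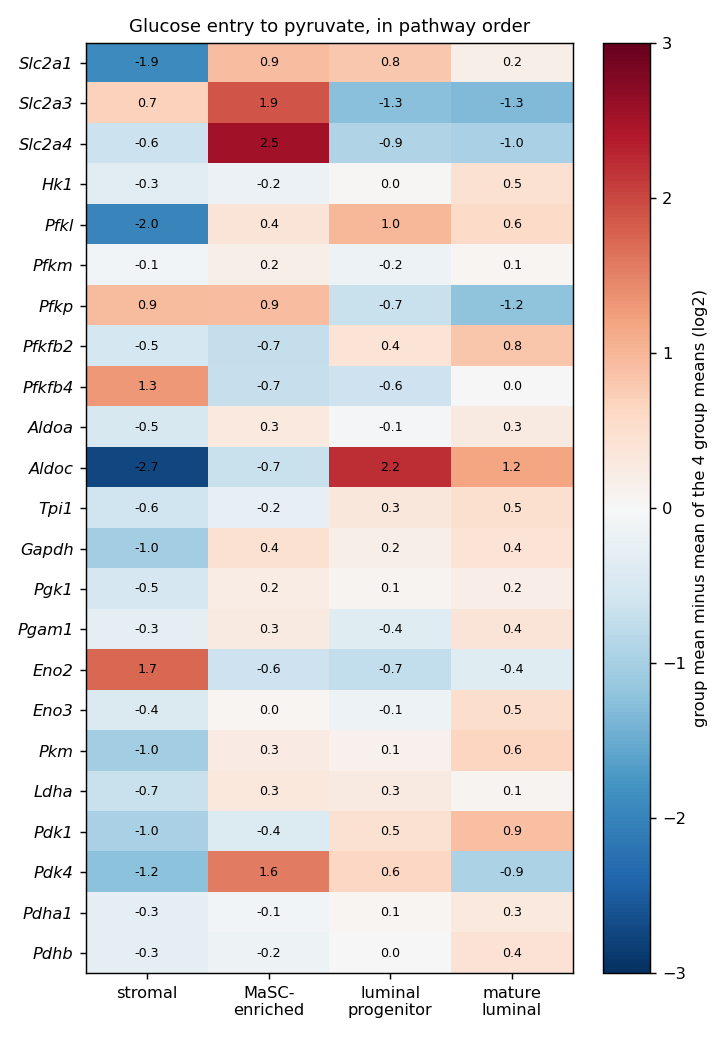
Group means of 23 genes from glucose entry to pyruvate oxidation, in pathway order, each minus the mean of its 4 group means (log2 units, color and number); the columns are stromal, MaSC-enriched, luminal progenitor and mature luminal cells. The stromal column is low for Slc2a1, Pfkl and Aldoc and high for Eno2 and Pfkfb4, and Slc2a3 and Slc2a4 are high in the MaSC-enriched column.

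Transporters of glucose and lactate were read as 1 list. Its 9 tested genes include Slc16a1, Slc16a3, Slc16a7 and Bsg, which serve lactate transport. Of the 9, 1, 1 and 1 were higher and 3, 2 and 2 lower in stromal than in MaSC-enriched, luminal progenitor and mature luminal cells. MaSC-enriched over luminal progenitor cells had 2 higher and 0 lower, MaSC-enriched over mature luminal 3 and 0, and luminal progenitor over mature luminal 1 and 0. Slc2a1, the widely used GLUT1, was 9.80 ± 0.55 in stromal (SD, n = 3), 12.62 ± 0.50 in MaSC-enriched, 12.52 ± 0.58 in luminal progenitor and 11.87 ± 0.41 in the mature luminal subset (SD, n = 5 each). Its stromal log2 fold changes were -2.60, -2.36 and -1.75 (adjusted p = 2.77e-08, 5.38e-08 and 1.09e-06).

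Slc2a4, the insulin-responsive GLUT4, was 5.90 ± 0.51 in stromal (SD, n = 3), 9.06 ± 0.66 in MaSC-enriched, 5.65 ± 0.43 in luminal progenitor and 5.59 ± 0.34 in the mature luminal subset (SD, n = 5 each). MaSC-enriched cells exceeded luminal progenitor and mature luminal cells by 3.53 and 3.62 (adjusted p = 2.16e-08 and 7.27e-09). Adipocyte markers, whose cells also express Slc2a4, averaged 6.47 to 7.57 on MaSC-enriched arrays against 6.13 to 7.67 on luminal progenitor and 6.28 to 6.47 on mature luminal arrays, and their part was not tested. Slc2a3, or GLUT3, was higher in MaSC-enriched than in luminal progenitor and mature luminal cells by 3.43 and 3.30. Stromal cells were lower than MaSC-enriched cells (-1.07, adjusted p = 0.0212). They exceeded luminal progenitor cells by 2.36 (adjusted p = 1.11e-05) and mature luminal cells by 2.23 (adjusted p = 9.43e-06). Luminal progenitor arrays spread widely, at 5.23, 4.99, 6.53, 8.27 and 4.90, and only 3 of 5 were above background. The size of the folds against them is thus uncertain. Array 4, at 8.27, lay above all stromal arrays (7.65 to 8.20) and near the lowest MaSC-enriched array (8.44).

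The regulators tested were Pfkfb2, Pfkfb3 and Pfkfb4, which set the level of fructose 2,6-bisphosphate, the main activator of phosphofructokinase, and the fructose bisphosphatases Fbp1 and Fbp2, which undo the phosphofructokinase step. Among these 5, stromal cells had 1 higher against each epithelial subpopulation and 0, 3 and 2 lower. MaSC-enriched cells had 0 higher and 1 lower against luminal progenitor and 3 lower against mature luminal cells, and luminal progenitor over mature luminal cells had 0 higher and 1 lower. Pfkfb4 was the higher one in stromal cells (2.16, 2.22 and 1.38). Pfkfb2 was lower in stromal than in luminal progenitor (-0.98) and mature luminal cells (-1.51) and lower in MaSC-enriched cells than in both (-1.12 and -1.65).

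Past pyruvate, 12 genes were tested, of which 1, 2 and 1 were higher and 2, 4 and 3 lower in stromal than in MaSC-enriched, luminal progenitor and mature luminal cells. MaSC-enriched over luminal progenitor cells had 2 higher and 2 lower, MaSC-enriched over mature luminal 3 and 2, and luminal progenitor over mature luminal 1 and 0. The kinases that switch pyruvate dehydrogenase off did not move together. Pdk1 was lower in stromal than in luminal progenitor (-1.54) and mature luminal cells (-1.85) and lower in MaSC-enriched cells than in both (-0.9996 and -1.31), while Pdk4 was lower in stromal than in MaSC-enriched (-2.73) and luminal progenitor cells (-2.02) and higher in MaSC-enriched and luminal progenitor than in mature luminal cells (2.65 and 1.94). Pdp1, a phosphatase that switches the enzyme on, was higher in stromal cells (1.45, 1.82 and 2.13). Of 6 pentose phosphate genes tested, 0, 0 and 1 were higher and 2, 3 and 3 lower in stromal cells, with transaldolase (Taldo1) lower against all 3 subpopulations (-0.62, -1.35 and -1.43) and transketolase (Tkt) lower against luminal progenitor (-1.30) and mature luminal cells (-1.11).

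Genes of the hypoxia response, which includes several glycolysis enzymes among its textbook targets, went in both directions in the stromal comparisons. Of 15 tested, stromal cells had 4, 6 and 6 higher and 5, 5 and 4 lower against MaSC-enriched, luminal progenitor and mature luminal cells. Adm, the vasoactive peptide adrenomedullin, was higher in stromal cells by 3.59, 4.33 and 5.02, and P4ha1, a collagen prolyl hydroxylase, by 1.86, 3.37 and 3.39. Egln3, the oxygen-dependent prolyl hydroxylase PHD3, was lower in stromal cells by log2 fold changes of -3.54, -4.44 and -2.38 and higher in luminal progenitor than in mature luminal cells (2.06). Within the epithelium the calls were mostly in 1 direction. MaSC-enriched over mature luminal cells had 9 higher and 1 lower, where 13.7% of all genes were higher and 13.8% lower. The median log2 fold change of the list was 0.76 there, beside -0.04 over all genes. MaSC-enriched over luminal progenitor had 5 and 1 (all genes 11.3% and 10.9%), and luminal progenitor over mature luminal 5 and 1 (6.41% and 4.66%).

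The genes whose level followed a glycolysis enzyme most closely across the 18 arrays were picked by Pearson's r, as a description, since the arrays share subpopulations, pools and batches. For Aldoc these were Cracr2b (r = 0.982), Ceacam2 (0.980) and Rbm47 (0.973). For Pfkl they were Eps8l2 (0.982), Ercc2 (0.979) and Celsr2 (0.979), and for Pfkp Rmdn2 (0.954), Msn (0.948) and Trak2 (0.945). The closest gene to each of the other 6 had an r of 0.892 (Pramel37 to Ldhb) to 0.954 (Gfus to Tpi1).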

How the data were processed

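The arrays were Illumina MouseWG-6 BeadChips read in BeadStudio (submitters' processing notes). The authors deposited log2 intensities that limma's neqc had background corrected and quantile normalized, and these were used as deposited (column medians 5.27 to 5.29). A second deposited table of intensities before normalization has 18 value columns that match no sample label, and was not used. Background per array was taken from 1504 olfactory and vomeronasal receptor probes: their median, plus their MAD times the normal quantile at 0.99. A probe was kept if above it on at least 1 array, which left 35590 of 45281 (78.6%), including 662 receptor probes. Symbols came from GEO's platform annotation (34885 probes with 1 symbol, 18 with several, 10378 unnamed). The brightest kept probe on average represented a gene.

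Models were fitted in limma 3.58.1 (statmod 1.5.0, R 4.3.3) with array weights, a random block for the mouse pool (estimated correlation 0.263) and empirical Bayes moderation, and adjusted by Benjamini-Hochberg over all kept probes and the 6 comparisons together. The labels name the pool as the biologic replicate, and residuals of arrays from the same pool correlated with a median of 0.414 over 24 pairs (0.03 for other pools of the same batch, -0.204 between batches). No 2 arrays were identical (highest correlation 0.993). Group means ± SD are unweighted, while fold changes are from the weighted fit. No fitted fold was given where a whole group was at or below background, and a bound took its place for the second Aldoc probe. Precision comes from the number of arrays, 3 or 5 per group. The procedure was tested on simulated data. Promoters and positions are RefSeq's, build GRCm38.p6.

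The genes, the lists and the tests were chosen with earlier results of these data known. Named were all 10 enzymes, for each list up to 3 called genes of largest change per comparison, and the 3 genes most like each enzyme. Pfkm was named as a further phosphofructokinase gene. Alternatives covered the filter, weights, block, batch, adjustment, fold threshold, choice of probe and each array in turn.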

Additional observations from a re-analysis of the deposited data

Results flagged for a closer look

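In 5 of 36 groups of 5 arrays, over the 9 genes and 3 isozyme differences, 1 array lay far from the others by Dixon's test, which chance does in about 1 in 20 groups. Aldoc on mature luminal array 4 was at 12.69, against 11.51 to 11.85 on the other 4. Pgk1 on luminal progenitor array 4 was at 10.59, against 11.77 to 12.16. Ldhb on mature luminal array 3 was at 5.06, against 5.81 to 6.11, a range next to background. The Pfkp minus Pfkl difference was -2.18 on MaSC-enriched array 4, against -0.89 to -0.57, and -4.47 on luminal progenitor array 4, against -2.99 to -2.56. Of these 5 values, 4 were from pool 4.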

How the results depend on the processing

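Over 17 alternatives and 18 fits without 1 array, 1780 of 1836 values of single genes stayed on their side of the thresholds, 39 lost a call, 17 gained one and 0 called values turned direction. The weakest comparison was luminal progenitor over mature luminal cells, with 2 genes called: 1 was called without the background filter, with adjustment per comparison, with the mean of all probes, in batch 1 alone, and in both fits without the arrays of high endothelial markers or without the epithelial arrays of pools 3 and 4. None (0) was called without array weights. For MaSC-enriched over luminal progenitor cells (2 called), 4 were called in batch 1 alone and 5 without a fold threshold. In batch 2 alone, with 2 arrays a group, 0 were called in any epithelial comparison by limma. The mouse pool block paired the samples: 1 gene was called for luminal progenitor over mature luminal cells with no replicate block (Aldoc lost, adjusted p = 0.0537) and with the pool as a fixed block (Pfkp lost, 0.57), and the other counts stayed within 1.5 times. Leaving out 1 array gave 5 to 5 calls for stromal over MaSC-enriched, 6 to 7 over luminal progenitor and 7 to 8 over mature luminal cells, 2 to 3 for MaSC-enriched over luminal progenitor, 4 to 4 over mature luminal, and 1 to 2 for luminal progenitor over mature luminal cells. Averaging all kept probes moved Aldoc in stromal over luminal progenitor cells to -2.85, Pfkl in stromal over MaSC-enriched cells to -1.10, and Tpi1 in stromal over MaSC-enriched cells to -0.74 (called) and in MaSC-enriched over mature luminal cells to -0.41 (not called). The fits without marked arrays were chosen after seeing the data. Ldhb and the second probes of Pfkl and Aldoc lay too near background to show modest differences.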
